A study of Homo sapiens with 32 samples.

Results

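The transcripts of the proteasome genes were examined for crosslinks to Alyref, Chtop and Nxf1, factors of nuclear mRNA export. A name pattern (PSM, a letter from A to G, then a digit) applied to the protein-coding genes of the GRCh37 annotation gave 50 genes of 19537. Of these, 48 encode subunits, activators, an inhibitor or assembly factors of the proteasome. The other 2, PSMC3IP and PSME3IP1, share the letters but are not subunits. They are counted with the 50 genes, also where these are called proteasome genes or members.

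The values are CLIP tags from iCLIP, in which UV light links a protein to RNA in living cells and reverse transcription stops at the linked base. Each tag is 1 cDNA at 1 crosslinked base. All libraries came from stable tetracycline-inducible lines of HEK293T FlpIn, an established cell line of human embryonic kidney origin into which a transgene can be recombined at a fixed locus, and all were immunoprecipitated through the FLAG tag. FLAG-tagged Alyref and Chtop were induced with 10 ng/mL tetracycline and FLAG-tagged Nxf1 with 5 ng/mL, for 48 h, while the Control cells carried the FLAG tag alone and the labels give no dose for them. Each group had 3 libraries, made from 32 lane runs in all, and the labels do not say whether these came from separate cultures, so that p-values measure only the spread between libraries. Depth ranged from 7017 tags in Control 1 to 631704 in Alyref 2, and replicate 1 was the shallowest library of every group. Levels are given as CPM, tags scaled so that each library sums to 1000000. The limit set by a count of 0 ranged from 4.75 CPM in the deepest library, Alyref 2, to 428 CPM in the shallowest, Control 1. Lanes differed by replicate number and not by group. The kidney line markers LIN28B and PAX2 held 201 and 49 tags and VIM 227, NEFM held 1, and the blood, liver and heart genes PTPRC, ALB and MYH6 held 1 to 3, with 12 on HBB.

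The proteasome is the protease that degrades ubiquitin-tagged proteins. Its 20S core is a barrel of alpha and beta rings, the beta rings hold the active sites, and the 19S cap, made of a ring of ATPases and of non-ATPase subunits, binds ubiquitin chains, unfolds the substrate and feeds it into the barrel. All of these subunits are needed in fixed numbers, their genes are expressed in every cell, and their mRNAs are spliced and must leave the nucleus. TREX, the complex to which Alyref and Chtop belong, hands mature mRNA to the export receptor Nxf1. RNA abundance was not measured in these samples, so that a tag level joins how much RNA was there with how often it was contacted.

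The proteasome genes carried 4678 tags on their own strand, 2821 in exons and 1857 in introns. The member bases with the most tags are shown with 10 nt on either side, read 5′ to 3′ on the gene strand of GRCh37, with the crosslinked base in capitals, because they show how thinly the contacts were spread and on what sequence the most repeated ones lay.

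PSMA7 5′ UTR, chr20:60718423-60718443, minus strand: cgccgggagtCgcgggtgcgc
PSMA7 5′ UTR, next base, chr20:60718422-60718442, minus strand: gccgggagtcGcgggtgcgcg
PSMC4 intron 6, chr19:40482483-40482503, plus strand: tcggcttactGcacgctctgc
PSMA1 3′ UTR, chr11:14526516-14526536, minus strand: tataatcattTtctagaaagt
PSMA1 3′ UTR, chr11:14526612-14526632, minus strand: atgctatgttTtaggaatcag
PSMA1 CDS, chr11:14540565-14540585, minus strand: tcgaaatcagTatgacaatga

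The leading base lay in the first exon of PSMA7, an alpha ring subunit, 18 nt from the annotated transcript start. It held 8 tags in 5 libraries, of which 2 were Alyref, 2 Chtop and 4 Nxf1. The base next to it held 4 tags, 1 from each of the 4 groups, Control included. The PSMC4 intron base held 4 tags, all in Alyref 3. Each of the 3 PSMA1 bases held 3 tags in 3 libraries. Repeated contacts were rare: 96.2% of the 4481 crosslinked member bases held 1 tag, and 138 were seen in 2 or more libraries. The crosslinked base was uracil for 55.0% of the Alyref tags on these genes, 56.0% of the Chtop, 56.8% of the Nxf1 and 51.2% of the Control tags. The 95% Wilson intervals of these pooled shares overlapped for every pair of groups.

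Tags were found on 47 of the 50 genes, at a median of 76.5 per gene. The immunoproteasome genes PSMB8 and PSMB9, which replace core active-site subunits in immune cells, and the thymus gene PSMB11 had 0 tags in all 12 libraries. PSMB10, the remaining immunoproteasome subunit, had 6, all in Alyref. PSMA8, the testis counterpart of PSMA7, had 0 exon tags and 5 intron tags. At the other end PSME4, which encodes the large activator PA200, carried 587, and the 5 genes with the most tags held 32.5% of all of them. Exon tags were seen on 45 of the 50 genes in Alyref, 44 in Chtop, 38 in Nxf1 and 21 in Control, the order of the depth of the groups. The 44 pseudogenes named after these genes held 9 tags together. Only uniquely mapped reads were kept upstream, so that reads shared with such copies are missing from both.

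**Figure D1:**
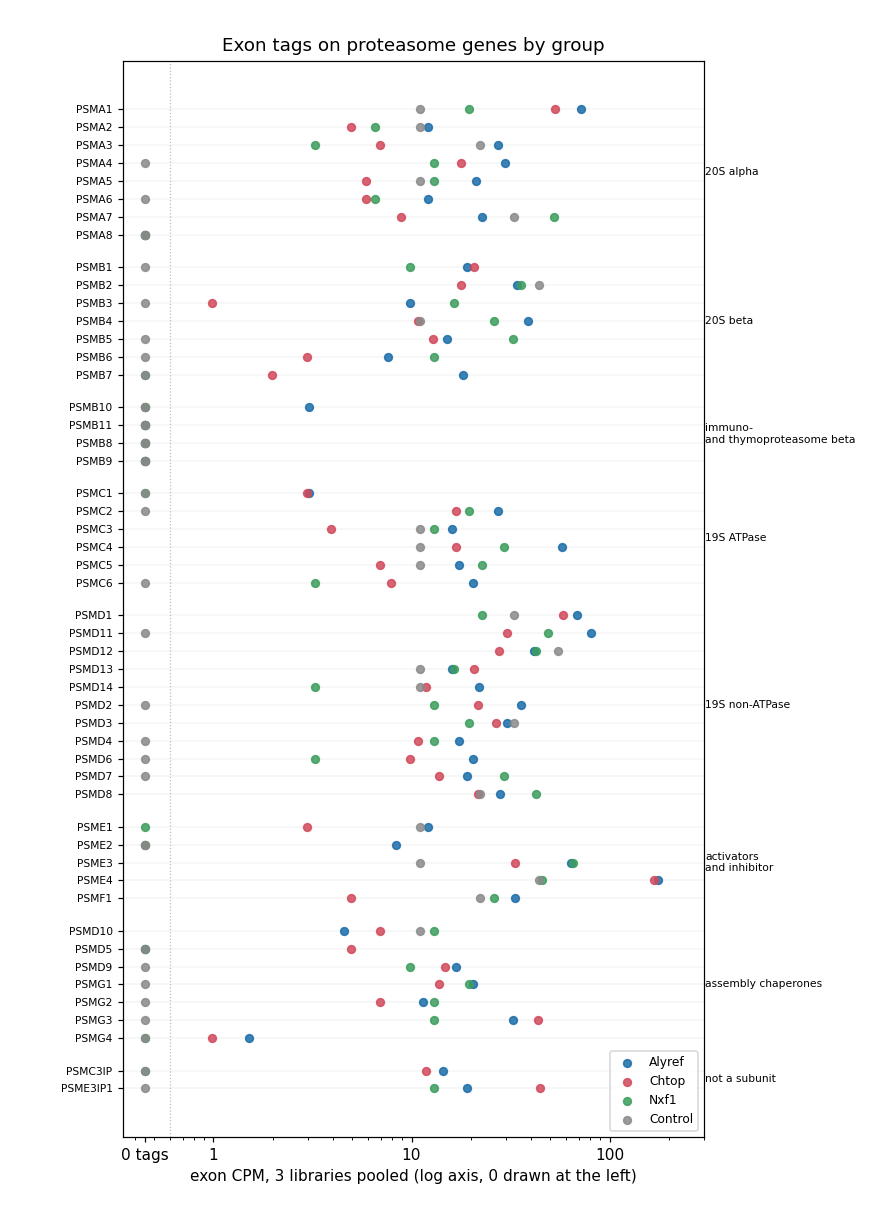
Exon level in CPM (log axis, 3 libraries of a group pooled, genes without a tag drawn at the left) for each of the 50 genes, in rows ordered by role, with 1 point per group. Alyref (blue) lies to the right of Chtop (red) for most genes of the core and the cap, PSME4 is the highest gene in both, and PSMB8, PSMB9 and PSMB11 have no tag in any group.

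As a whole the proteasome genes had a higher exon level in Alyref than in Chtop. Their exon level was 1291, 1385 and 1165 CPM in the 3 Alyref libraries. In Chtop it was 786, 904 and 759 CPM. The Alyref and Chtop libraries did not overlap, also within each replicate number, and the means were 1281 ± 110 (SD, n = 3) and 816 ± 77.0 (SD, n = 3). Nxf1 libraries ranged from 535 to 1225 and overlapped every other group. Control libraries ranged from 108 to 713, below all Alyref and Chtop libraries. Control 3 and Control 1 gave the lowest and the highest Control level from only 4 and 5 exon tags.

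All protein-coding genes together did not show this order. Their exon level was 395666 ± 36394 (SD, n = 3) CPM in Alyref and 488385 ± 110499 (SD, n = 3) in Chtop. The proteasome genes thus took 0.335%, 0.318% and 0.319% of the protein-coding exon tags in the Alyref libraries and 0.215%, 0.175% and 0.130% in the Chtop libraries. Nxf1 and Control spread on both sides, from 0.160% to 0.406% and from 0.135% to 0.472%. With libraries pooled the share was 0.319% (95% Wilson interval 0.304% to 0.335%) in Alyref, 0.156% (0.146% to 0.167%) in Chtop, 0.376% (0.332% to 0.426%) in Nxf1 and 0.337% (0.248% to 0.459%) in Control. Pooled, the Chtop interval lay below the other 3, but by library Nxf1 1 and Control 3 were within the Chtop range, and Control 2 held 31 of the 40 Control exon tags. Intervals cover counting error only.

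The same order held in every exon region. In the CDS the pooled share was 0.345% in Alyref and 0.179% in Chtop. In the 3′ UTR it was 0.225% and 0.123%, and in the 5′ UTR 0.443% and 0.226%. Introns differed less, with 0.230% of the protein-coding intron tags in Alyref and 0.190% in Chtop, and there Alyref 3 and Chtop 2 both had 0.210%.

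**Figure D2:**
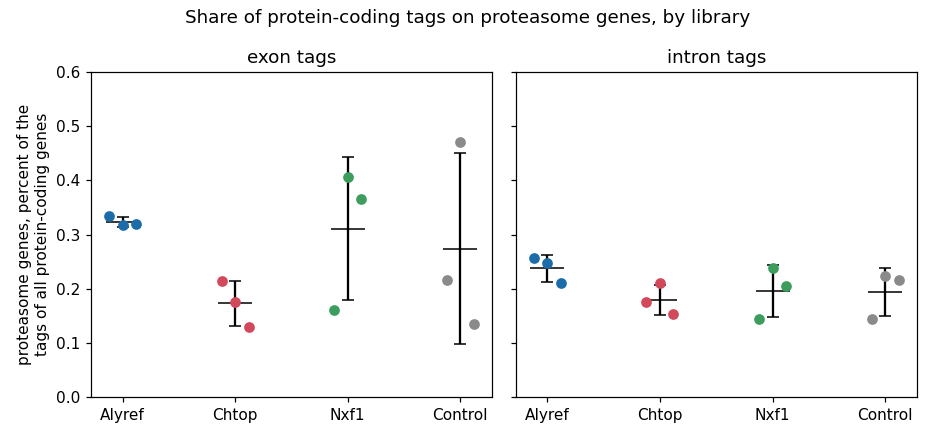
Tags on the proteasome genes as a percentage of the tags of all protein-coding genes, in exons (left) and introns (right), with 1 point per library and the mean and SD of 3 libraries in black. In exons the Alyref points lie between 0.318% and 0.335% and the Chtop points between 0.130% and 0.215%, while Nxf1 and Control span both.

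Gene by gene, 37 members had at least 20 exon tags in Alyref and Chtop together, and 33 of them had the higher pooled level in Alyref. This is 89.2% of the members, against 35.3% of the 8720 protein-coding genes that met the same minimum. The median ratio of Alyref to Chtop was 1.65 for the members, with a range from 0.429 to 9.26, and 0.771 for the protein-coding genes. For 13 members the 95% interval of the ratio lay above 1 and for 1, PSME3IP1, below it, counting error alone being covered. Such intervals were not computed for the protein-coding genes, so these counts have no background.

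The core beta subunit PSMB7, which carries trypsin-like activity, had the highest ratio. Its exon tags were 0, 15 and 9 in the Alyref libraries and 0, 1 and 1 in the Chtop libraries, and none were seen in Nxf1 or Control. The ratio of 9.26 had a 95% interval from 2.30 to 80.8. PSMF1, the proteasome inhibitor PI31, followed with 3, 24 and 17 tags in Alyref against 0, 4 and 1 in Chtop, a ratio of 6.79 (2.70 to 21.9). PSMB4, a core beta subunit without a catalytic site, had 3, 30 and 18 tags against 0, 9 and 2, a ratio of 3.58 (1.84 to 7.61). PSMC3, PSMA3 and PSMA5 lay between PSMF1 and PSMB4, at 4.05, 3.97 and 3.60. In replicates 2 and 3, the deepest pairs of libraries, the level was higher in Alyref for PSMB7, PSMF1 and PSMB4. PSMF1 and PSMB4 were named after their values were seen, and these libraries gave most of the pooled tags. The agreement between replicates is therefore no separate support.

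Core alpha subunits had 12.6 CPM per kb of exon in Alyref and 6.65 in Chtop. PSMA1, their most tagged member, had 6, 45 and 43 exon tags in Alyref and 0, 26 and 28 in Chtop, while PSMA5 had 2, 18 and 8 against 1, 2 and 3. Constitutive beta subunits stood at 14.5 and 6.90 CPM per kb. PSMB2 was their most tagged gene, with 45 exon tags in Alyref and 18 in Chtop. In each ring the Alyref density was the higher.

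ATPases of the cap were at 10.2 exon CPM per kb in Alyref and at 3.97 in Chtop. PSMC4 led them with 3, 43 and 30 tags in Alyref and 2, 10 and 5 in Chtop, a ratio of 3.45 (2.02 to 6.23). PSMC2 came next with 36 and 17. In the non-ATPase part of the cap the densities were 14.9 and 9.90. PSMD11, a structural lid subunit, had 7, 46 and 53 tags in Alyref and 2, 18 and 11 in Chtop. PSMD1, the largest base subunit, had 90 and 59, a ratio of 1.18 (0.838 to 1.66) whose interval spans 1.

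Activators and the inhibitor stood at 14.4 and 10.3 exon CPM per kb. PSME3, which encodes the nuclear activator PA28 gamma, had 84 exon tags in Alyref and 34 in Chtop. Assembly chaperones, which build the rings and the cap and leave the finished particle, had no higher Alyref density as a class, at 6.93 in Alyref and 7.26 in Chtop. PSMG3, a chaperone of the alpha ring, held 44 of the 93 Chtop exon tags of that class, with 5, 22 and 16 tags in Alyref and 4, 22 and 18 in Chtop. Without PSMG3 the class had 4.89 CPM per kb in Alyref and 4.31 in Chtop, from 72 and 49 tags. PSMG3 was left out after its values were seen, and leaving out a gene lower in Alyref can only raise Alyref against Chtop. Both orders of the class are small differences given without an interval. PSMD9, a chaperone of the cap base, had 22 and 15. PSMD5, another chaperone of the base, had 5 tags, all in Chtop 2.

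The 2 genes that are not subunits were tagged at 8.0 exon CPM per kb in Alyref and 13.4 in Chtop. PSME3IP1, whose product binds PA28 gamma, had 0, 19 and 6 exon tags in Alyref and 2, 20 and 23 in Chtop, a ratio of 0.429 (0.252 to 0.714). PSMC3IP, a recombination factor, had 19 and 12.

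Tags also fell on different parts of the transcripts. CDS held 70.2% ± 2.34 (SD, n = 3) of the Alyref exon tags on the proteasome genes and 55.4% ± 2.69 (SD, n = 3) of the Chtop tags. The 3′ UTR held 18.4% ± 2.83 (SD, n = 3) of them in Alyref and 36.2% ± 3.32 (SD, n = 3) in Chtop. Every Alyref library lay below every Chtop library in the 3′ UTR, at most 20.6% against at least 33.5%. Nxf1 stood between at 28.8% ± 10.8 (SD, n = 3), overlapping both, and the Control at 26.8% ± 7.90 (SD, n = 3).

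The Alyref to Chtop order was that of all protein-coding genes, where the 3′ UTR held 28.2% ± 1.29 (SD, n = 3) and 45.1% ± 1.95 (SD, n = 3). Nxf1 was at 45.0% ± 0.236 (SD, n = 3) there. The proteasome genes had less in the 3′ UTR for each of the 3 factors. Their 3′ UTRs are short in the annotation, with a median of 375 nt against 1027 nt for protein-coding genes, and their median CDS is 802.5 nt against 1278 nt, while the median gene of either set has 8 exons. As a share of exon length the sets were close, with the 3′ UTR at 45.8% in the proteasome genes and 47.5% in protein-coding genes, and the CDS at 49.8% and 47.1%.

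**Figure D3:**
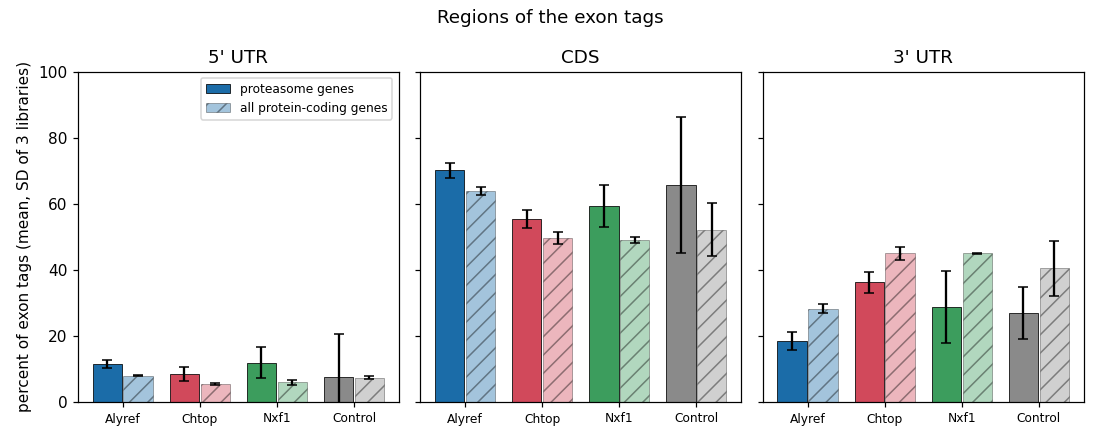
Mean percentage of exon tags in the 5′ UTR, CDS and 3′ UTR in each group, for the proteasome genes (solid) and all protein-coding genes (hatched), with the SD of 3 libraries. Alyref has the highest CDS bars and Chtop the highest 3′ UTR bar among the proteasome genes, and the Control bars rest on 40 exon tags.

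Per length, the factors differed in the CDS and less in the 3′ UTR. The pooled density in the CDS was 16.7 CPM per kb in Alyref, 8.87 in Chtop, 8.51 in Nxf1 and 4.14 in Control. In the 3′ UTR it was 5.13, 6.15, 5.59 and 2.93. The 5′ UTRs, which cover only 4.69 kb over all 50 genes, were the densest region, at 29.8, 13.4, 17.4 and 16.5. Each of the 3 Alyref libraries was above each of the 3 Chtop libraries in the 5′ UTR and in the CDS, and below each of them in the 3′ UTR.

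Split by exon, the 37 members with enough tags gave a pooled Alyref to Chtop ratio of 2.05 in all exons but the last, from 1245 and 469 tags. In their last exons the ratio was 0.802, from 372 and 358 tags. The first exon held 19.1% ± 2.59 (SD, n = 3) of the Alyref exon tags on the proteasome genes, against 10.0% ± 0.338 (SD, n = 3) over all protein-coding genes. A larger first-exon share than over all protein-coding genes was also seen in Chtop, at 14.7% ± 8.53 (SD, n = 3) against 7.22%, and in Nxf1, at 15.5% ± 1.74 (SD, n = 3) against 7.84%. The Chtop mean was raised by Chtop 1, at 24.3% from 9 tags. Pooled, Chtop had 10.9% (95% Wilson interval 9.02% to 13.2%) against 7.04%. In the pooled Control the first-exon share was 22.5% (95% Wilson interval 12.3% to 37.5%), from 9 tags, against 9.38%. Middle exons of the members are short, 45.9% of them under 100 nt against 32.7% for protein-coding genes. In the short ones the pooled ratio was 2.65, from 350 and 102 tags, and in those of 100 nt or more it was 1.76, from 644 and 282. Neither the ratios by last exon nor those by exon length were computed over all protein-coding genes.

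PSMA1 was a clear case of this split. Its last exon (exon 10, 373 nt, chr11:14526422-14526794, minus strand) took 41 of the 54 Chtop exon tags, with 0, 21 and 20 in the 3 libraries. Only 14 of the 94 Alyref exon tags lay there, with 3, 7 and 4 in the libraries. Exon 1 of the same gene had 22 tags, 1, 12 and 9 of them in the Alyref libraries and none in any other group. Exon 3 had 17 Alyref tags and 1 Chtop tag. Over the whole gene the ratio of Alyref to Chtop was 1.34 (0.951 to 1.91), with Alyref tags on the 5′ exons and most Chtop tags on the last.

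**Figure D4:**
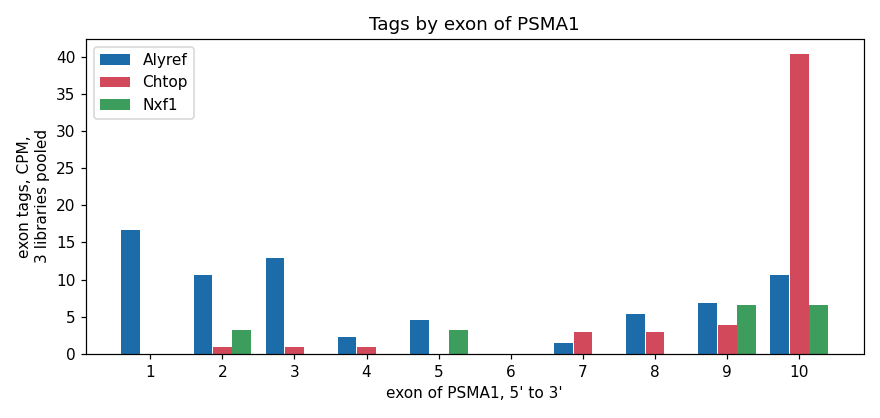
CPM on each of the 10 exons of PSMA1, with the 3 libraries of Alyref, Chtop and Nxf1 pooled. Alyref is highest on exon 1 at 16.7, and Chtop is highest on exon 10 at 40.4, where Alyref has 10.6.

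Among the 13 members with at least 20 exon tags in each of Alyref and Chtop, the last exon held a larger share of the Chtop than of the Alyref exon tags in 12, a minimum chosen after the values were seen. Its median share was 31.1% in Alyref and 51.6% in Chtop. By library, the last exon held 21.4% ± 3.77 (SD, n = 3) of the members' Alyref exon tags and 45.8% ± 4.28 (SD, n = 3) in Chtop. All protein-coding genes had the same order, at 32.4% ± 1.25 (SD, n = 3) and 51.4% ± 2.24 (SD, n = 3). The order was thus not particular to the proteasome genes. The last exon of PSMD13, a lid subunit, had 7 of 21 exon tags in Alyref and 17 of 21 in Chtop. The most tagged exon of the set was the last of PSME3, of 2263 nt, with 46 of 84 exon tags in Alyref (54.8%) and 29 of 34 in Chtop (85.3%). PSME3IP1 was the exception, with 23 of 25 tags on the last exon in Alyref (92.0%) and 40 of 45 in Chtop (88.9%). In PSMB4 the first exon had 20 tags in Alyref and 2 in Chtop. In PSMA7 the first exon took 9 of the 16 Nxf1 exon tags, 6 in replicate 2 and 3 in replicate 3. The Control had 3 tags in that exon, all in Control 2, and Alyref had 12.

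Positions around internal exon junctions were also compared. Of the tags within 100 nt of a junction between exons of at least 100 nt, 29.3% (95% Wilson interval 26.3% to 32.5%) of the Alyref tags lay from 75 to 24 nt upstream, the side on which the exon junction complex sits. Chtop had 24.9% (20.6% to 29.9%) and Nxf1 31.4% (22.6% to 41.8%), and the Control had only 9 such tags. For all protein-coding genes the values were 29.3% in Alyref, 24.9% in Chtop, 26.3% in Nxf1 and 28.6% (27.2% to 30.0%) in Control. These values lay within the members' intervals for Alyref, Chtop and Nxf1.

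Introns held 37.7% ± 2.94 (SD, n = 3) of the Alyref tags on the proteasome genes and 32.6% ± 6.37 (SD, n = 3) of the Chtop tags. The shares were 45.6% ± 13.6 (SD, n = 3) in Nxf1 and 65.5% ± 22.1 (SD, n = 3) in Control. The groups overlapped except that all Control libraries, at 44.4% or more, were above all Alyref and Chtop libraries. Over all protein-coding genes the means were 45.2%, 31.8%, 55.0% and 72.0%. Nxf1 libraries differed strongly from each other, with 60.2% in Nxf1 3 and 33.3% in Nxf1 1, the latter from 9 tags.

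Individual genes ranged from 0% to 95.4% intron tags among the 34 with at least 50 tags, around a median of 39.5%. PSMG4, a chaperone of the alpha ring, was at the top, with 62 intron tags and 3 exon tags (95% Wilson interval 87.3% to 98.4%). Its intron tags were 1, 11 and 6 in Alyref, 2, 7 and 6 in Chtop, 0, 14 and 11 in Nxf1 and 0, 2 and 2 in Control. As CPM, Nxf1 was the highest of the 3 factors in both of its introns. Over both introns the pooled level was 81.5 CPM in Nxf1, 14.8 in Chtop and 13.7 in Alyref. The Control stood at 44.1 CPM from 4 tags, above Alyref and Chtop. PSMB7 had 75.2%, PSMD14, the deubiquitinase of the lid, 69.7%, PSMA5 62.5% and PSME3IP1 60.4%.

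At the bottom PSMG3 had 0 intron tags beside 91 exon tags, on a single intron of 1273 nt. PSME3 had 12.6%, PSMD2, a ubiquitin-binding base subunit, 13.1%, PSMA7 22.7% and PSMA1 23.3%. Several of these genes have less intron sequence than those at the top, 7182 nt in PSME3 and 6897 nt in PSMD2 against 60994 nt in PSMB7 and 101726 nt in PSMD14. The order did not follow intron length throughout. PSMG4 has only 8318 nt, while PSMD1 with 112638 nt was at 44.6% and PSME4 with 99675 nt at 28.4%.

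**Figure D5:**
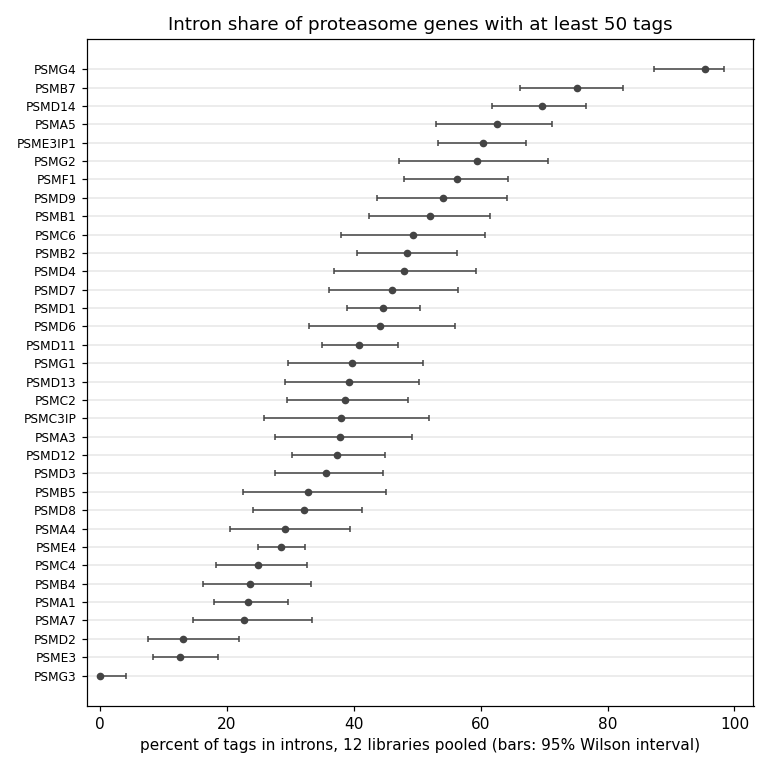
Percentage of tags in introns for the 34 proteasome genes with at least 50 tags, all 12 libraries pooled, with 95% Wilson intervals. PSMG4 stands alone at 95.4% and PSMG3 at 0%, and most genes lie between 20% and 60%.

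The introns with the most tags were long. Intron 1 of PSME3IP1 held 80 tags in 11951 nt, intron 4 of PSMF1 59 in 27824 nt and intron 16 of PSMD1 55 in 51554 nt. Per kb this was 6.69, 2.12 and 1.07 tags, and none had more than 2 tags at 1 base. All introns of the set held 1857 tags over 1024 kb. Intron 6 of PSMD11 held 27 tags in Alyref, 0, 19 and 8 by library, and 2 in Chtop. Intron 2 of PSMA5 held 28 tags, 9 of them from the Control and 8 of these in Control 3, the largest Control cluster in the set. Intron 1 of PSME4 had 15 Nxf1 tags, 12 of them in Nxf1 3.

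Differences between groups were then tested for every gene, exons and introns apart, with edgeR. The filter on low counts kept 1255 exon rows and 1281 intron rows of protein-coding genes, and only 3 rows of the 50 genes: PSME4 exons, PSME4 introns and PSME3IP1 introns. The other members were too thinly covered in the shallow libraries. In exons, 1 of 1 member tested was higher in Alyref than in Control, where 31.3% of the protein-coding rows were, and 1 of 1 was higher in Chtop, where 70.8% were.

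PSME4 (chr2:54091206-54198130, minus strand) had 17, 122 and 92 exon tags in Alyref, 5, 105 and 61 in Chtop, 0, 10 and 4 in Nxf1 and 0, 3 and 1 in Control. As CPM this was 209, 193 and 152 in Alyref and 106, 195 and 142 in Chtop. Nxf1 had 0, 83.9 and 22.3 and Control 0, 64.3 and 27.0, so that the libraries of Alyref and Chtop were above replicates 2 and 3 of both other groups. Nxf1 1 and Control 1 cannot be placed, because a count of 0 there allows up to 369 and 428 CPM. Exon tags of PSME4 were 2.22 higher on the log2 scale in Alyref than in Control (SE 0.78, edgeR quasi-likelihood test with Benjamini-Hochberg adjusted p = 0.0379) and 2.07 higher in Chtop (SE 0.79, adjusted p = 0.0249). The median of the protein-coding exon rows was 1.98 and 2.49 for these comparisons, so PSME4 was near the typical row. The Alyref call was lost with DESeq2 (adjusted p = 0.0988) and with total tags as depth (adjusted p = 0.0869), and the Chtop call with the latter (adjusted p = 0.0551). No filter on low counts lost both calls, and RLE size factors or merged exons lost the Alyref call. The Alyref call was also lost without Alyref 2, Alyref 3, Chtop 3, Nxf1 2, Nxf1 3 or any 1 of the Control libraries (adjusted p = 0.0521 to 0.278), and the Chtop call without Control 1 or Control 3 (adjusted p = 0.0550 and 0.0861).

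Against Nxf1, PSME4 exon tags were 1.68 higher in Alyref (SE 0.58, edgeR adjusted p = 0.0410) and 1.52 higher in Chtop (SE 0.58, adjusted p = 0.0226). Of the protein-coding exon rows, 20.1% were called higher in Alyref than in Nxf1 and 60.2% in Chtop. With the replicate number, and so the lane set, as a block, the Alyref value was 1.74 and no longer past the threshold (adjusted p = 0.0598). The Alyref call was lost too without Alyref 2, Alyref 3, Nxf1 1, Nxf1 3, Control 2 or Control 3 (adjusted p = 0.0571 to 0.480), and the Chtop call without Nxf1 3 (adjusted p = 0.0975). With no filter both calls were lost, and with merged exons, DESeq2 or a minimum of 20 tags over the 12 libraries the Alyref call was. Nxf1 minus Control was 0.54 (SE 0.97, adjusted p = 0.904), a comparison in which 0.319% of the rows were called higher. Alyref minus Chtop was 0.15 (SE 0.43, adjusted p = 0.810), a difference within its error whose sign changed with the normalization, beside 1.43% of the rows called higher and 14.3% lower.

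In introns the order was turned. PSME4 had 5, 47 and 35 intron tags in Alyref, 1, 31 and 15 in Chtop and 1, 10 and 18 in Nxf1, with 2, 1 and 1 in Control. Chtop was lower than Nxf1, with a log2 difference of -1.35 (SE 0.58, edgeR adjusted p = 0.0400), and with the block the value was also -1.35 (adjusted p = 0.0639). The call was lost without Alyref 1, Chtop 1, Control 2 or Control 3 (adjusted p = 0.0812 to 0.186). PSME3IP1 had 3, 24 and 23 intron tags in Alyref, 3, 13 and 10 in Chtop, 1, 8 and 20 in Nxf1 and 0, 4 and 4 in Control. It was lower in Chtop than in Nxf1 by a log2 difference of -1.99 (SE 0.66, edgeR adjusted p = 0.00975), and Alyref minus Nxf1 was -1.60 (SE 0.61, adjusted p = 0.0669). In the Chtop against Nxf1 comparison 46.7% of the protein-coding intron rows were called lower and their median was -1.19, and 1.95% were called lower in Alyref than in Nxf1. The PSME3IP1 call was lost without Alyref 2, Alyref 3, Chtop 3 or Nxf1 2 (adjusted p = 0.0713 to 0.180), and without Chtop 2 the value was -0.62 (adjusted p = 0.616). Both intron calls were lost with RLE size factors, no filter, tags in more than 1 gene counted, DESeq2 or a minimum of 20 tags over the 12 libraries.

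A looser filter, at least 20 tags over the 12 libraries, was added after the data were seen and let 38 exon rows and 32 intron rows of the members in. Because Alyref and Chtop are the deepest groups, a row passes it mainly through their tags, so that members high there entered more easily. Chtop was higher than Control for the exons of 5 of 38 members, PSME4, PSME3IP1, PSMG3, PSMA1 and PSMD11, against 41.1% of the 9080 protein-coding rows. It was higher than Nxf1 for 5 of 38, PSME4, PSMG3, PSME3IP1, PSMC3IP and PSMA1, against 37.3%. Alyref was higher than Control for 1 of 38, PSMD11, against 1.76%. PSMD11, PSMG3 and PSME3IP1 had 0 exon tags in all Control libraries, and PSMC3IP had 0 in all Nxf1 libraries. A count of 0 in the Control libraries allows up to 428, 64.3 and 81.1 CPM. PSMD11 had 86.1, 72.8 and 87.9 CPM in Alyref. The sizes of the differences of these genes are therefore not known. Shares of members called were below the background in both Chtop comparisons and near it in the Alyref one. Because rows entered mainly through the groups then tested as higher, these shares are not read as a result about the members.

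Medians in the looser fit share this limit. The median log2 difference of Chtop against Nxf1 in exons was 0.46 for the members and 1.93 for the protein-coding rows. For Alyref against Chtop it was 0.21 and -0.85, with 25 of 38 members above 0. The share of protein-coding rows above 0 was not counted. Against the Control the members' median was 3.32 in Alyref and 2.88 in Chtop, beside 3.07 and 3.90 for the protein-coding rows. No member passed the threshold between Alyref and Chtop in exons, where 7.09% of the protein-coding rows were called lower in Alyref and 0.0771% higher, and 3 of the 38 members (7.89%) had an unadjusted p under 0.05, against 31.7% of the protein-coding rows. The sign of an Alyref to Chtop difference depends on the scaling, since size factors by the RLE method moved the median of the 1255 protein-coding exon rows of the stricter fit from -0.59 to -1.08. The position of the members relative to other protein-coding genes, as in the shares above, does not use these factors.

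Genes that work with the proteasome but carry other names were looked at beside the members. Of 23 such genes, 21 met the minimum of 20 exon tags and 8 of them had the higher pooled level in Alyref, with a median ratio of 0.921. The edgeR fit tested 3 of them in exons. ECPAS, a scaffold that binds the proteasome, had 15, 132 and 113 exon tags in Alyref, 6, 77 and 62 in Chtop, 1, 13 and 3 in Nxf1 and 0, 1 and 0 in Control. It was 4.25 higher in Alyref than in Control (SE 1.05, adjusted p = 0.00846) and 3.85 higher in Chtop (SE 1.1, adjusted p = 0.00324), and the other 2 were not called in these comparisons. UBE3C, a ubiquitin ligase at the proteasome, was 1.90 higher in Alyref than in Nxf1 (SE 0.61, adjusted p = 0.0288) and 2.35 higher in Chtop (SE 0.61, adjusted p = 0.00150). DDI2, the protease that activates the transcription factor of proteasome genes, was lower in Alyref than in Nxf1 (log2 difference -1.67, SE 0.54, adjusted p = 0.0284). In introns 2 were tested, and ECPAS was lower in Chtop than in Nxf1 (log2 difference -1.46, SE 0.53, adjusted p = 0.0172). Of the protein-coding exon rows, 31.3% were called higher in Alyref than in Control and 70.8% in Chtop. Against Nxf1, 20.1% were higher in Alyref and 60.2% in Chtop, and 16 of 1255 were lower in Alyref. Of the intron rows, 46.7% were lower in Chtop than in Nxf1. Alternative fits are not given for these genes.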

How the data were processed

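iCLIP tags were taken from 12 libraries, 3 each of Alyref, Chtop, Nxf1 and Control. The deposited values are counts. Per the methods and the submitters' processing notes, the authors removed phiX reads with Bowtie 1.1.2, moved random barcodes to read names with UMI-tools 0.5.3, aligned uniquely mapped reads to hg19 with STAR 2.4.2a, merged lanes, and removed duplicates by barcode, leaving for each crosslinked base its strand and number of tags. Pooled files equalled the sum of their replicates, with 0 differing bases, and were not used otherwise.

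Tags were assigned by strand to genes of GENCODE release 44 in GRCh37 coordinates, newer than the annotation the authors aligned with, with exons and introns of the canonical transcript. Readthrough genes were dropped, a choice made after the data were seen, and tags in more than 1 gene (2.82% to 4.00% of a library) were left out. Between 61.0% and 87.3% of the tags of a library had 1 gene.

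Gene rows (exon and intron apart) were tested with edgeR 4.0.16 in R 4.3.3 (quasi-likelihood F-test, TMM, filterByExpr, all 12 libraries in 1 fit, Benjamini-Hochberg adjusted over all 2670 rows, threshold 0.05). The procedure was tested on simulated data. Alternatives were RLE size factors, DESeq2 1.42.0, no filter, a replicate block, each library left out, merged exons, multi-gene tags, each base counted once, and total depth, with a minimum of 20 tags and readthrough genes kept added after seeing the data.

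Members and lists were chosen with earlier results of these data known. Genes were named if past the threshold, among the 2 with the most tags of their role, without tags, among the 5 highest or lowest in intron share, or holding 1 of the 6 bases with the most tags. PSMF1, PSMB4, PSMD5, PSMD13, PSMA8, PSMG4 exons, and single exons and introns were named after their values were seen. The class of chaperones without PSMG3 was also a choice of that kind. Replicate numbers were not used to pair the libraries in the main fit. The 18 same-numbered pairs ranged from -0.40 to 0.36 in the correlation of deviations, with a median of 0.085 and 9 over 0.1. The 36 other pairs ranged from -0.36 to 0.34, with a median of -0.024 and 9 over 0.1.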

Additional observations from a re-analysis of the deposited data

How the results depend on the processing

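Calls on single members were few and fragile. In exons, the number of members called was 1 for Alyref against Control and 0 with RLE size factors, no filter, merged exons, total depth or DESeq2. For Chtop against Control it was 1, 0 with no filter or total depth, and 5 with the minimum of 20 tags. For Alyref against Nxf1 it was 1 and 0 with no filter, merged exons, DESeq2 or the minimum of 20 tags. For Chtop against Nxf1 it was 1, 0 with no filter and 5 with the minimum of 20 tags. In introns Chtop against Nxf1 gave 2 calls, 1 with merged exons, each base counted once or total depth, and 0 with RLE size factors, no filter, multi-gene tags, DESeq2 or the minimum of 20 tags. With the replicate block, 0 exon calls stood for Alyref against Nxf1 and 1 intron call for Chtop against Nxf1, and no other count changed. With 1 library left out, the counts ranged from 0 to 2 (Alyref against Control), 0 to 1 (Chtop against Control, Alyref against Nxf1 and Chtop against Nxf1 in exons), 0 to 2 (Chtop against Nxf1 in introns) and 0 to 1 (Alyref against Nxf1 in introns). The cause of these changes was not tested, except that no filter leaves more rows to adjust for.

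Differences that were not called changed sign. PSME4 exons in Alyref against Chtop went from 0.15 to -0.28 with RLE size factors, -0.0033 with each base counted once, -0.22 with DESeq2 and -0.23 with the minimum of 20 tags, and from -0.41 to 0.16 with 1 library left out. PSME3IP1 introns in that comparison went from 0.38 to -0.13 with RLE size factors, -0.20 with DESeq2 and -0.074 with the minimum of 20 tags, and from -0.67 to 0.56 with 1 library left out. PSME4 introns in Chtop against Control went from 0.14 to -0.29 with merged exons and -0.083 with total depth, and from -0.12 to 1.04 with 1 library left out. PSME4 exons in Nxf1 against Control went from -0.69 to 1.60 with 1 library left out.

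Among the descriptions, merging the exons of all transcripts gave an Alyref intron share of 29.5% and exon levels of 1511 CPM in Alyref and 928 in Chtop. UTR shares were not run with merged exons. Without PSME4 the exon levels were 1096 and 669, the total in Alyref 1806, the CDS shares 66.0% and 49.7%, the Chtop 3′ UTR share 40.7% and the Alyref 5′ UTR share 13.1%. Alyref stayed above Chtop in exon level in both. Depth limits these values: replicate 1 of Nxf1 and of Control held 9 member tags each, and in Control 1 a count of 0 allows up to 428 CPM.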
